A study of Mus musculus with 6 samples.

Results

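A group of 9 glycogen genes was read from RNA sequencing of sorted mouse astrocytes. They are Pgm2, Gyg, Gys1 and Gbe1 on the side of synthesis, Pygb and Pygm on the side of breakdown, and Ppp1r3c, Ppp1r3d and Ppp1r3g among the regulators, and they were taken by gene symbol as 9 of the 45777 genes in the expression table. The astrocytes came from male C57BL/6 mice carrying Aldh1l1-CreERT2 and a floxed tdTomato reporter, although the genotype label reads wild type. In these mice, in both groups, tamoxifen (75 mg/kg for 5 days) turned on the red reporter in cells that drive Cre from the astrocyte gene Aldh1l1. At 8 weeks of age the mice received either 1 injection of streptozotocin (STZ, 150 mg/kg), which destroys the insulin-producing cells of the pancreas, or only the citrate buffer as vehicle. The brains were collected 21 days after the injection. Each of the 3 STZ and 3 vehicle samples held reporter-positive cells pooled from 3 mice, so the errors given here are the spread between pools. The STZ mice had been selected for high blood glucose.

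Glycogen is the glucose store of the brain, and in the adult brain it is held mainly by astrocytes. Phosphoglucomutase interconverts glucose 6-phosphate and glucose 1-phosphate, glycogenin primes a new glycogen particle, glycogen synthase lengthens its chains and the branching enzyme branches them. Glycogen phosphorylase, switched on by phosphorylase kinase, releases glucose 1-phosphate again. Targeting subunits bring protein phosphatase 1 to the particle, where it activates the synthase and inactivates the phosphorylase.

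All 9 genes were well covered in these samples, and none passed the threshold for a difference between STZ and vehicle. The gene that came closest was Ppp1r3c, which encodes the targeting subunit known as protein targeting to glycogen. It averaged 127 ± 13.0 normalized CPM in STZ and 163 ± 7.53 in vehicle (SD, n = 3 each), and every STZ sample lay below every vehicle sample. Both phosphorylase genes, the synthase gene and the branching enzyme gene had lower means in STZ with smaller fold changes, from -0.15 to -0.20 on the log2 scale against -0.36 for Ppp1r3c, and the genes for glycogenin and the other 2 targeting subunits had nearly equal means. Normalized CPM are the deposited read counts scaled to library size with edgeR's TMM factors. A gene was called in edgeR's quasi-likelihood test when its fold change exceeded 1.5 at an adjusted p under 0.05. Over all 22337 genes with a count in every sample, 0.0224% were called (5 genes). At an unadjusted p under 0.05, edgeR counted 1 of the 9 members and 11.3% of all genes tested (2519 genes). DESeq2 called 0 of the 9 members and 1.05% of all genes (234 genes), and it gave 1 of the 9 members and 10.3% of all genes (2309 genes) an unadjusted p under 0.05. The groups did not overlap for 2 members, Ppp1r3c and Pygb, against 18.5% of all genes. Both were lower in STZ, a direction found without overlap in 9.85% of all genes. The median log2 fold change was -0.15 over the 9 members and 0.01 over all genes tested.

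**Figure D1:**
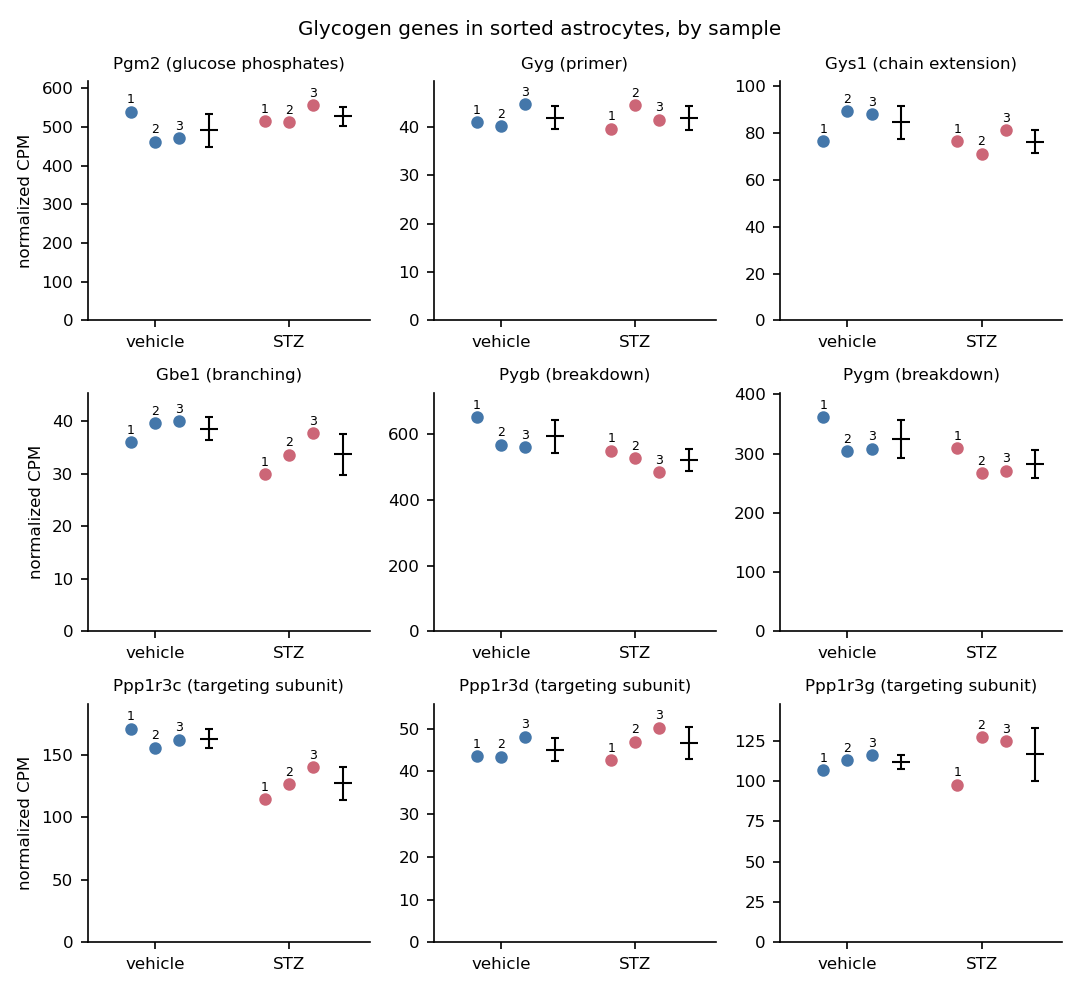
Normalized CPM (vertical axes, from 0) of the 9 glycogen genes in each sample. Points are samples with their replicate number, the bar is the mean and the whisker 1 SD of 3 samples; only for Ppp1r3c and Pygb do all STZ points lie below all vehicle points.

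Total counts ran from 52529048 to 58749115 per sample, and the members held between 1815 counts (the lowest Gbe1 sample) and 34958 counts (the highest Pygb sample), so counting error was small beside the spread between samples. The sorted cells expressed astrocyte markers. The 8 astrocyte genes summed to between 12628 and 15434 TPM, the deposited level corrected for transcript length. The samples also held RNA of other cells. The choroid plexus and ependymal list reached 10528 to 29815 TPM, nearly all of it the transthyretin gene Ttr, and oligodendrocyte genes were highest in vehicle replicate 1 (1645 TPM) and STZ replicate 1 (2429 TPM) against 559 to 767 TPM in the other samples. The 10 endothelial genes summed to 64.0 to 224 TPM in vehicle and 232 to 445 TPM in STZ, and the 8 mural genes to 54.6 to 66.0 TPM and 86.1 to 112 TPM. In bulk samples such as these, fewer cells of a type and less RNA per cell cannot be told apart.

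The members differed widely in level. By TPM averaged over the 6 samples, Pgm2 stood highest at 474 ± 39.8 (SD, n = 6), followed by Pygb at 315 ± 35.8 and Pygm at 230 ± 28.8. Ppp1r3c at 118 ± 17.4 and Ppp1r3g at 109 ± 10.3 came next, then Gyg at 52.9 ± 2.37 and Gys1 at 47.4 ± 3.51, and last Ppp1r3d at 30.5 ± 1.65 and Gbe1 at 26.3 ± 2.43. Ppp1r3c and Ppp1r3g changed places between samples, with Ppp1r3g the lower in 4 of 6, and so did Gyg and Gys1, with Gys1 the lower in 5 of 6. Pygm was below Pygb in each of the 6 samples although their ranges over samples overlapped. All other neighbours in this order were separated in range.

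Pgm2 encodes a phosphoglucomutase. The expression table uses the older mouse names, and its Pgm2 is NCBI gene 72157, which RefSeq for GRCm38 lists as Pgm1 at chr4:99929451-99987294 on the + strand. It had 539, 461 and 471 normalized CPM in vehicle replicates 1 to 3 and 515, 512 and 555 in STZ replicates 1 to 3. The STZ values lay inside or just above the vehicle range, and the log2 fold change was 0.10 (95% interval -0.10 to 0.31, edgeR adjusted p = 0.681).

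Gyg (chr3:20122083-20155117, - strand) encodes glycogenin, the self-glucosylating primer of the particle. It was measured at 41.1, 40.2 and 44.7 normalized CPM in vehicle and at 39.7, 44.5 and 41.5 in STZ, values that interleave. Its log2 fold change was -0.003 (95% interval -0.19 to 0.18, edgeR adjusted p = 0.991).

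Gys1 (chr7:45434839-45456617, + strand) encodes the glycogen synthase of muscle, brain and most other tissues. It had 76.4, 89.2 and 88.1 normalized CPM in vehicle and 76.6, 71.1 and 81.1 in STZ. Vehicle replicate 1 lay among the STZ samples, and the log2 fold change of -0.15 (95% interval -0.35 to 0.06) had an edgeR adjusted p of 0.551. The liver synthase gene Gys2 had only 0 to 9 counts per sample, so Gys1 made up at least 99.7% of the TPM of both synthases in every sample.

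Gbe1 (chr16:70313949-70569720, + strand) encodes the branching enzyme. Its normalized CPM were 36.0, 39.6 and 40.1 in vehicle and 29.9, 33.6 and 37.7 in STZ. The highest STZ sample exceeded the lowest vehicle sample, and the log2 fold change was -0.19 (95% interval -0.43 to 0.04, edgeR adjusted p = 0.516).

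Pygb (chr2:150786796-150831748, + strand) encodes the brain form of glycogen phosphorylase. It had 652, 568 and 560 normalized CPM in vehicle and 550, 526 and 484 in STZ. No STZ sample reached the lowest vehicle sample, but the gap between the groups, from 550 to 560, was small beside the spread within them. The log2 fold change was -0.19 (95% interval -0.41 to 0.03), with an edgeR adjusted p of 0.489.

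Pygm (chr19:6384408-6398464, + strand) encodes the muscle form of the enzyme, which astrocytes are known to express as well. It had 361, 304 and 308 normalized CPM in vehicle and 309, 267 and 271 in STZ. STZ replicate 1 lay within the vehicle range, and the log2 fold change was -0.20 (95% interval -0.43 to 0.03, edgeR adjusted p = 0.492). Skeletal muscle markers were low in the samples: the 5 summed to 3.23 to 7.56 TPM, and Ckm and Myh4, the genes for muscle creatine kinase and a fast myosin heavy chain, had 0 TPM in 5 of the 6 samples each. Most of the sum came from Mylpf (1.94 to 5.25 TPM) and Tnnt3 (1.05 to 2.57 TPM), which had reads in every sample.

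Within each sample the 2 phosphorylase genes kept nearly the same proportion. Pygb supplied 56.1%, 56.6% and 54.7% of the TPM of Pygb, Pygm and the liver form Pygl in vehicle, and 54.0%, 56.2% and 54.8% in STZ. The means were 55.8% ± 0.976 and 55.0% ± 1.12 (SD, n = 3 each; exact permutation test, two-sided, p = 0.5). Pygm supplied 38.2% to 41.6%. Pygl was the minor form, with 15.1, 16.5 and 28.2 TPM in vehicle and 31.8, 29.9 and 19.7 TPM in STZ, so its 2 ranges overlapped (log2 fold change 0.42, 95% interval -0.22 to 1.06, edgeR adjusted p = 0.590). Over the samples Pygl was lowest where the summed endothelial genes were lowest, in vehicle replicates 1 and 2. It was highest in STZ replicates 1 and 2, where those genes were highest. The order differed for replicate 3: the endothelial sum was 224 TPM in vehicle and 232 TPM in STZ, but Pygl was higher in the vehicle sample. Of the 8 genes of the choroid plexus and ependymal list, Ccdc153 and Tmem212 ranked the samples by TPM as Pygl did. The others, Foxj1, Ttr, Folr1, Kl, Clic6 and Kcnj13, did not. The part of endothelial, ependymal or other cells in the Pygl level was not tested.

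The log2 ratio of Gys1 to Pygb TPM, the synthase set against the main phosphorylase, was -3.03, -2.61 and -2.61 in vehicle and -2.78, -2.83 and -2.52 in STZ. The means of -2.75 ± 0.244 and -2.71 ± 0.168 (SD, n = 3 each) did not differ beyond this spread (exact permutation test, two-sided, p = 0.8). The difference of the means, 0.04, turned to -0.10 without vehicle replicate 1 and to -0.05 without STZ replicate 3.

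Of the 3 targeting subunits, Ppp1r3c was the one whose groups stood apart. It lies at chr19:36731731-36736604 on the - strand. The sequence before its start is shown with that of Ppp1r3d, because both hold a CACGTG, the letters of the core E-box, in capitals here, while the 2 genes differed in how they stood between the groups. Both stretches are from the RefSeq promoter table for GRCm38.p6, 5′ to 3′ on the gene's strand. For Ppp1r3c it is chr19:36736678-36736733 (- strand), with the motif beginning 104 bases before the start, and for Ppp1r3d it is chr2:178414659-178414713 (- strand), with the motif 226 bases before the start.
Ppp1r3c: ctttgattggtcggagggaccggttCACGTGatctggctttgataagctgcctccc
Ppp1r3d: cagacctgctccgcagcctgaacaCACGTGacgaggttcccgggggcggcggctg
All 9 members had a promoter in the table (250 bases before to 50 bases after the start). Counted on both strands over these windows, CACGTG was present in 3 members (Gyg holds it after the start) and in 7.15% of all 32851 promoters. The cyclic AMP response element TGACGTCA was in 0 members and 1.79% of promoters, the shorter TGACG, which the full element contains, in 4 members (Gyg, Pygb, Ppp1r3d and Ppp1r3g) and 20.8%, and TATAAA in 1 member (Pgm2) and 13.6%. The letters describe the windows and do not say that a factor binds there.

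Ppp1r3c had 171, 156 and 162 normalized CPM in vehicle and 114, 127 and 140 in STZ. The highest STZ sample, replicate 3, stayed below the lowest vehicle sample, replicate 2. The log2 fold change was -0.36 (SE 0.09, 95% interval -0.57 to -0.15), equal to a difference of -21.9% from vehicle. The edgeR test gave an unadjusted p of 0.00459 and an adjusted p of 0.287, and DESeq2 gave an adjusted p of 0.0754, the lowest over all alternatives, which reached up to 0.626. The size was under the 1.5-fold minimum. Leaving out each sample in turn gave log2 fold changes between -0.43 and -0.29, all negative.

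Ppp1r3d (chr2:178411206-178414463, - strand) encodes a more broadly expressed targeting subunit. It had 43.5, 43.5 and 48.1 normalized CPM in vehicle and 42.7, 46.9 and 50.2 in STZ, with overlapping groups and a log2 fold change of 0.05 (95% interval -0.15 to 0.25, edgeR adjusted p = 0.861). Ppp1r3g (chr13:35958824-35970388, + strand), a further targeting subunit, had 107, 113 and 116 normalized CPM in vehicle and 97.7, 127 and 125 in STZ. STZ replicate 1 was the lowest of the 6 samples and STZ replicates 2 and 3 were the highest, so the STZ group was wider than the vehicle group on both sides (log2 fold change 0.06, 95% interval -0.19 to 0.31, edgeR adjusted p = 0.867). The signs of Ppp1r3d and Ppp1r3g turned without STZ replicate 3 and without STZ replicate 2, respectively, to -0.01 in both cases.

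The makeup of the targeting subunits followed from these values. Ppp1r3c supplied 49.7%, 46.1% and 46.1% of the summed TPM of Ppp1r3a to Ppp1r3g in vehicle and 41.4%, 39.0% and 41.0% in STZ. The means were 47.3% ± 2.06 and 40.5% ± 1.29 (SD, n = 3 each), a difference of -6.84 percentage points without overlap between the groups. The exact permutation test (two-sided) gave p = 0.1, the smallest that 3 samples against 3 allow, and 0.3 after Benjamini-Hochberg adjustment over the 3 quantities tested in this way (0.75 for the Pygb share and 0.8 for the ratio of Gys1 to Pygb). Ppp1r3g supplied 36.9% to 38.9% in vehicle and 40.6% to 45.9% in STZ, and Ppp1r3d 10.4% to 11.3% and 11.9% to 12.7%. Since shares of 1 sum move against each other, these are not separate results. The muscle subunit gene Ppp1r3a was listed at 0 counts in all samples, and Ppp1r3b, best known from liver, had 3.61 to 8.08 TPM.

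**Figure D2:**
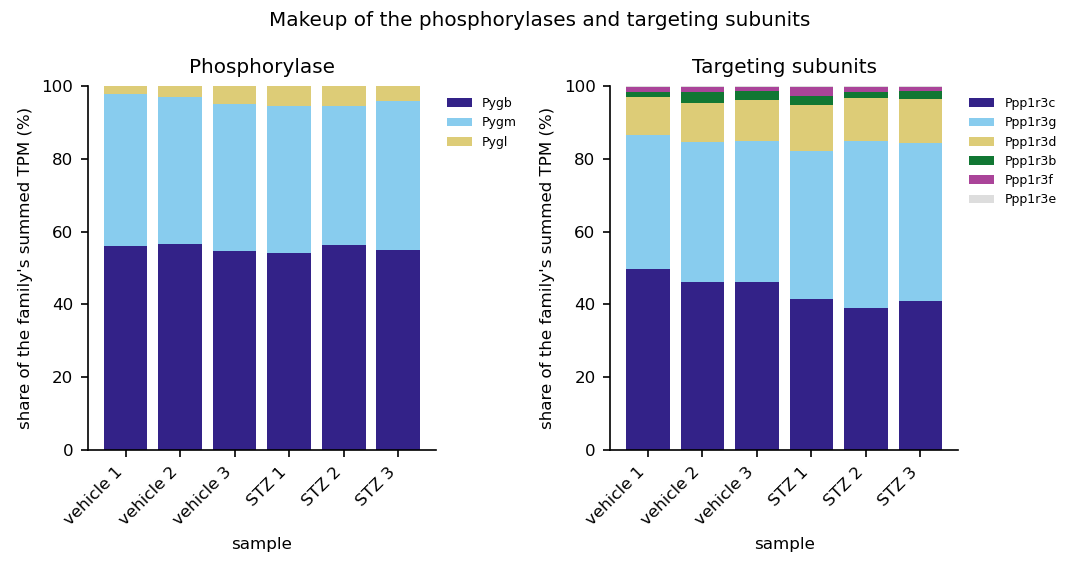
Share of each gene (vertical axes, percent) in the summed TPM of the 3 phosphorylase genes and of the targeting-subunit genes, with 1 bar per sample. Pygb keeps 54.0% to 56.6% of phosphorylase TPM throughout, while the Ppp1r3c part is 46.1% to 49.7% in vehicle and 39.0% to 41.4% in STZ.

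Values of astrocyte and vascular markers are given beside Ppp1r3c. Aldh1l1, the gene whose promoter marked the cells, had 369, 320 and 318 TPM in vehicle and 308, 298 and 262 TPM in STZ (log2 fold change -0.22, edgeR adjusted p = 0.398). The water channel gene Aqp4 had 561, 442 and 469 TPM in vehicle and 321, 379 and 361 TPM in STZ (log2 fold change -0.48, edgeR adjusted p = 0.280, DESeq2 adjusted p = 0.0169, under the 1.5-fold minimum). Of the 8 astrocyte genes 5 had a lower and 3 a higher mean in STZ, and their sum overlapped between the groups (12765 to 15434 TPM in vehicle, 12628 to 14054 in STZ). Aldh1l1 and Aqp4 were the only 2 of them at an unadjusted p under 0.05 in edgeR. The log2 fold changes of the others were -0.26 for Gja1, -0.11 for Slc1a2, -0.10 for Slc1a3, 0.0006 for Gfap, 0.02 for Sox9 and 0.16 for Aldoc. All 10 endothelial genes and 7 of 8 mural genes had a higher mean in STZ, and Pdgfrb had a lower one (log2 fold change -0.08). Of the higher genes, 8 and 4 had an unadjusted p under 0.05 in edgeR, against 11.3% of all genes in either direction. The edgeR test called 0 of both lists. DESeq2 called 4 mural genes, Tagln, Acta2, Myh11 and Rgs5, of which the first 3 encode contractile proteins of smooth muscle, and 1 endothelial gene, Nostrin, all with STZ higher. It called 1.05% of all genes, and the mural genes Pdgfrb, Kcnj8, Cspg4 and Cnn1 were not called. Set against Aldh1l1 in the same sample, a comparison chosen after the values were seen, the log2 ratio of Ppp1r3c TPM was -1.38, -1.35 and -1.32 in vehicle and -1.70, -1.53 and -1.22 in STZ. These groups overlapped, with STZ replicate 3 above all vehicle samples (difference of means -0.13, exact permutation test, two-sided, p = 0.4). The difference was -0.03 without STZ replicate 1 and -0.26 without STZ replicate 3. This ratio covers Aldh1l1 alone, which was itself lower in every STZ sample than in every vehicle sample. Sox9 and Aldoc overlapped between the groups, with log2 fold changes of 0.02 and 0.16, and ratios to other astrocyte genes were not computed. The overlap in the ratio to Aldh1l1 cannot be carried over to them. The part of the markers in the Ppp1r3c difference was not tested beyond this ratio.

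**Figure D3:**
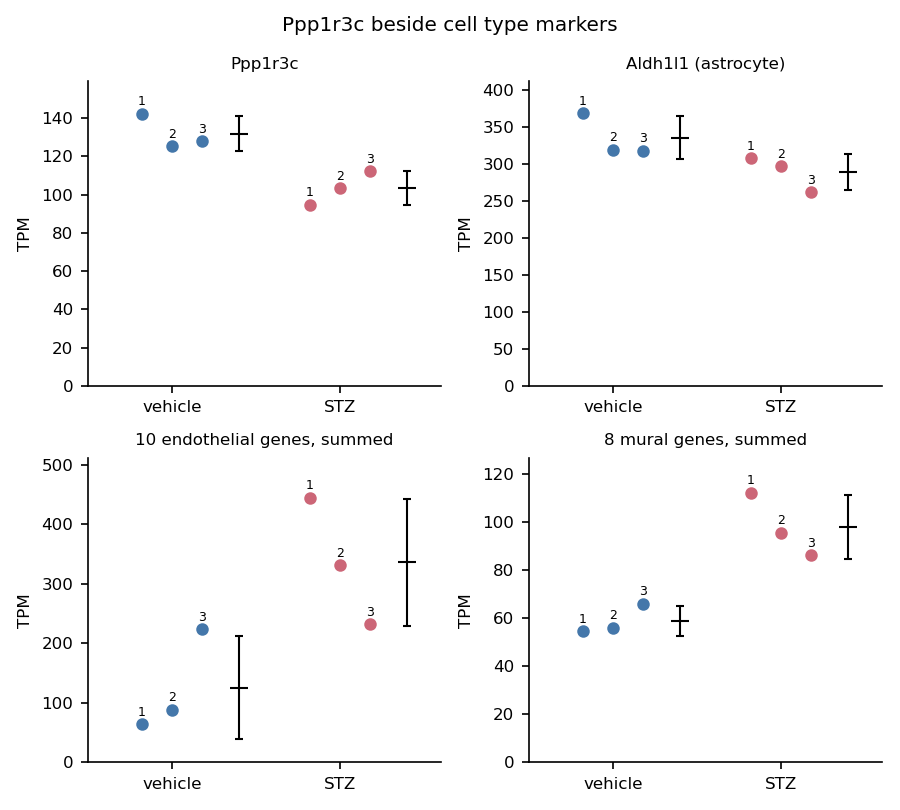
TPM by sample (vertical axes, from 0) of Ppp1r3c, Aldh1l1, and the sums of the endothelial and mural marker lists. Points are samples with their replicate number, with the mean and 1 SD of 3 samples. Ppp1r3c and Aldh1l1 lie lower in all STZ samples. Both vascular sums lie higher, with the endothelial gap only from 224 to 232 TPM. Aldh1l1 is 1 of 8 astrocyte genes. Their sum, not drawn, overlapped between the groups (12765 to 15434 TPM in vehicle, 12628 to 14054 TPM in STZ).

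A list of 29 further genes of the pathway was drawn up by role, and 27 had a count in every sample. Neither edgeR nor DESeq2 called any of them. At an unadjusted p under 0.05 edgeR counted 6, of which 5 were lower in STZ (5.65% of all genes tested were lower at that p) and 1 was higher. DESeq2 counted 6 as well, split in the same way, against 10.3% of all genes in either direction. The groups did not overlap for 11 of the 27, with 5 lower and 6 higher in STZ, against 18.5% of all genes (2200 lower and 1929 higher of 22337). The median log2 fold change of the 27 was -0.08.

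Among the 5 lower genes were 3 of the subunits of phosphorylase kinase, the enzyme that switches phosphorylase on. Phka1, the muscle form of its regulatory alpha subunit, had 326, 290 and 283 normalized CPM in vehicle and 242, 260 and 229 in STZ, without overlap (log2 fold change -0.30, 95% interval -0.50 to -0.10, edgeR adjusted p = 0.311). Phkb, the beta subunit, had 92.5, 85.0 and 83.8 in vehicle and 63.0, 71.5 and 77.2 in STZ, also without overlap (-0.30, -0.52 to -0.09, edgeR adjusted p = 0.324). Phkg1, the muscle form of the catalytic gamma subunit, had 186, 170 and 152 in vehicle and 133, 152 and 143 in STZ, where the groups overlapped narrowly (-0.24, -0.46 to -0.02, edgeR adjusted p = 0.407). The liver forms stood close to no difference, with log2 fold changes of 0.04 for Phka2 (95% interval -0.24 to 0.33) and -0.01 for Phkg2 (-0.19 to 0.16). By TPM the muscle forms were the main ones, with 91.0% to 93.6% of the alpha subunit from Phka1 and 61.7% to 69.0% of the gamma subunit from Phkg1.

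The other 2 lower genes act in the lysosome and at the entry of glucose. Gaa, the lysosomal alpha-glucosidase that degrades glycogen in lysosomes, had 370, 369 and 380 in vehicle and 356, 321 and 295 in STZ (-0.21, edgeR adjusted p = 0.434). Hk1, the hexokinase that makes glucose 6-phosphate, had 161, 156 and 150 in vehicle and 145, 120 and 137 in STZ (-0.22, edgeR adjusted p = 0.411). Neither of them overlapped between the groups, and the size of their fold changes was close to that of Pygb, Pygm and Aldh1l1.

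The 1 gene higher in STZ was listed as Pgm1, which is NCBI gene 66681 and Pgm2 by its RefSeq name. It had 19.7, 20.1 and 19.4 normalized CPM in vehicle and 26.4, 23.8 and 22.8 in STZ, without overlap (log2 fold change 0.30, 95% interval 0.09 to 0.52, edgeR adjusted p = 0.324). Its level of 16.1 to 24.0 TPM was far below the 425 to 515 TPM of NCBI gene 72157. Ugp2, which makes the UDP-glucose used by glycogen synthase, was abundant at 211 to 316 TPM and overlapped between the groups (log2 fold change -0.18, 95% interval -0.48 to 0.11, edgeR adjusted p = 0.608). The 3 catalytic subunit genes of protein phosphatase 1, Ppp1ca, Ppp1cb and Ppp1cc, had log2 fold changes of 0.12, 0.13 and 0.09, each without overlap and with STZ higher, and with edgeR adjusted p-values of 0.575, 0.499 and 0.612.

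**Figure D4:**
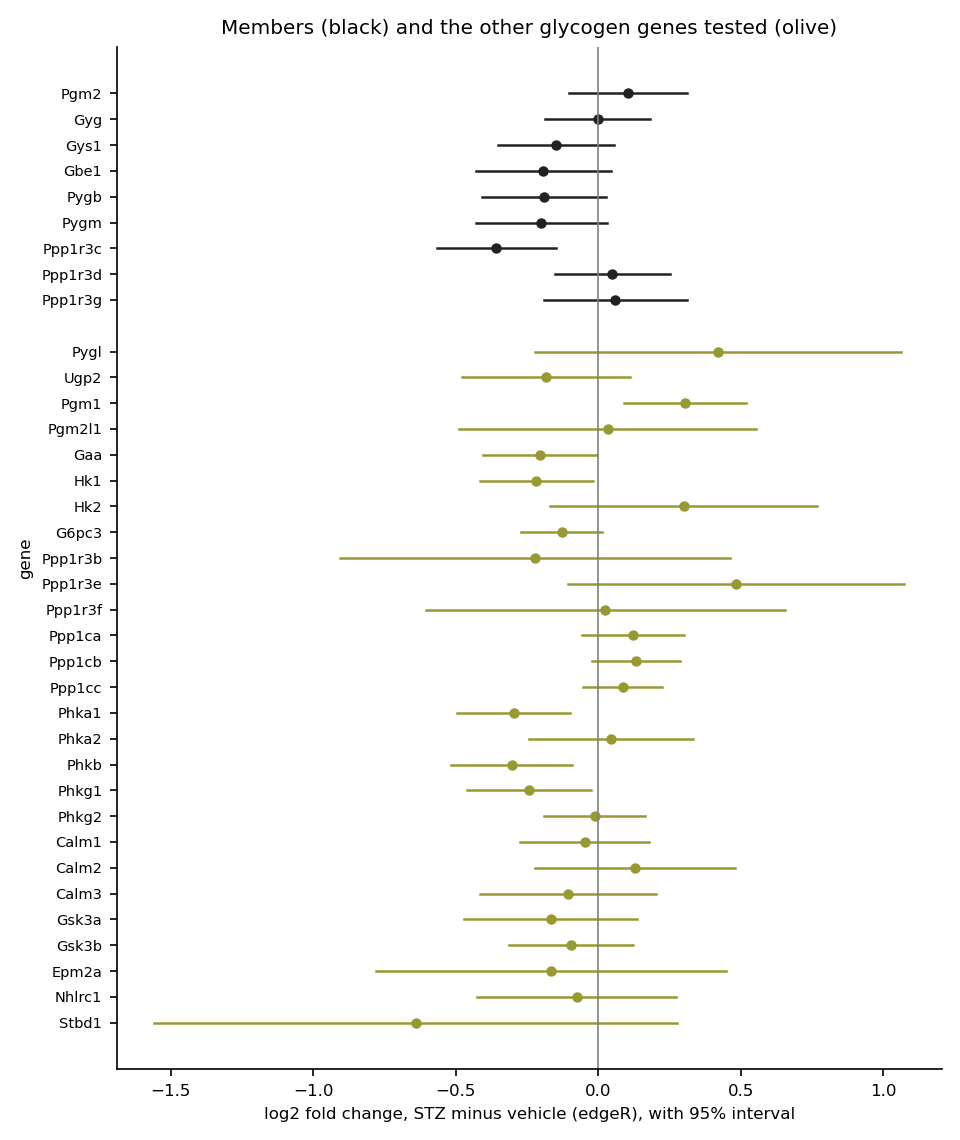
Log2 fold change, STZ minus vehicle, from edgeR (horizontal axis, with 95% intervals) for the 9 members and the 27 other glycogen genes tested (1 row each). Among the members only the interval of Ppp1r3c, -0.57 to -0.15, leaves out 0; Phka1, Phkb, Phkg1, Gaa and Hk1 lie below 0 and Pgm1 above it.

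Overlapping and related genes touch a few of these counts because no source says that strand was used in counting. In GENCODE M21, 13.6% of the exonic bases of NCBI gene 72157 are shared with Itgb3bp on the opposite strand and 6.47% of those of Gys1 with Ruvbl2 on the opposite strand, while the other members share none. Of the 50-base words in Pygm transcripts, 0.405% also occur in Pygb transcripts, and none occur in another gene, so few reads of that length could be placed on both. Gyg, Gbe1 and the 3 targeting subunits shared no such word with any other gene.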

How the data were processed

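RNA from 3 STZ and 3 vehicle samples was analysed. The read counts were deposited as whole numbers per gene, not normalized; the authors obtained them from HISAT2 alignments to mm10, with StringTie for quantification. The submitters' processing notes name bcl2fastq 2.20.0, Trimmomatic 0.38, HISAT2 2.1.0, SAMtools 1.9 and StringTie 2.1.3b. The TPM and FPKM values were also made by the authors, who corrected them for length and depth; TPM served for levels and shares, and FPKM was not used further. The labels and the methods name different library kits, and the annotation is not given in the sources used here. An undescribed removal of outlier genes by the authors was not repeated.

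The quasi-likelihood test of edgeR 4.0.16 (R 4.3.3; TMM, two-sided, Benjamini-Hochberg) was applied to the 22337 genes with reads in all samples. DESeq2 1.42.0 and limma 3.58.1 on log2(TPM + 1) and log2(TPM + 0.1) were alternatives, with other filters, size factors, robust fitting, a replicate block and leaving out each sample. Shares and ratios were compared with exact permutation tests. Procedures were tested on simulated data. Coordinates come from RefSeq for GRCm38, matched by NCBI gene number (45679 of 45777 genes). The members and gene lists were chosen with earlier results of these data known. All 9 members were named, with each of the 29 other genes whose unadjusted p was under 0.05. The levels of Gys2, Pygl, Ugp2 and Pgm1 were named as well. Phka2, Phkg2, Ppp1r3a, Ppp1r3b and the phosphatase subunits were added after their values were seen. So was the comparison of Pygl with endothelial and ependymal genes. A further gene of the list is not reported here.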

Additional observations from a re-analysis of the deposited data

How the results depend on the processing

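No member and no other glycogen gene was called under any alternative run. The number of genes called over the whole table depended strongly on the method: it was 5 in the edgeR test, 234 with DESeq2, 10 with robust fitting, 0 with the replicate block, 0 with limma on either TPM scale, and 0 to 1 when 1 sample was left out (1 without vehicle replicate 3). The count of members at an unadjusted p under 0.05, 1 in edgeR, ranged from 1 to 2 when 1 sample was left out. It was 2 without vehicle replicate 1, without STZ replicate 1 and without STZ replicate 3. Of 126 member fold changes under 14 alternatives, 119 kept their sign and 7 reversed. For Gyg, near 0 throughout, the log2 fold change was 0.0093 and 0.0094 with limma at pseudocounts 1 and 0.1, and -0.0481 to 0.0348 when 1 sample was left out. The same ranges were -0.0082 to 0.11 for Ppp1r3d and -0.0085 to 0.17 for Ppp1r3g. The log2 ratio of Gys1 to Pygb ranged from -0.10 to 0.11. The Ppp1r3c share differed by -7.43 to -5.65 percentage points and by -6.80 with normalized CPM in place of TPM. Samples with the same replicate number come from different mice and did not deviate together (correlations -0.101, -0.162 and -0.184), so the numbers were not taken to pair them. With the replicate block, Ppp1r3c had an edgeR adjusted p of 0.600 and the exact p of its share was 0.25, the smallest that 3 pairs allow. With 3 samples a group, differences of the size of those in Pygb, Pygm and Gbe1 could not be told from the spread between pools, and depth was not the limit.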
